A study of Rattus norvegicus with 16 samples.

Results

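Of 10 listed goblet cell and mucus genes (Muc2, Muc1, Muc4, Tff3, Fcgbp, Clca1, Zg16, Agr2, Spdef and Retnlb), 7 were represented among the 15159 named genes of the array and are described here across the 4 groups of rats. The genes were taken by name, through the RefSeq transcript that each non-control probe carries, and not by any measured value. Muc2, Muc1 and Muc4 matched no probe by this rule and were not analysed here, so the 3 classical mucin members have no level below. The 7 remaining genes were read by 8 probes, 2 of them for Spdef, and all 8 probes were well above background on all 16 arrays.

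The rats were male (ACIxF344)F1 animals, 1 array per rat and 4 rats per group, and all were 97 days old at dissection. A pair of groups carried the Pirc allele of the tumour suppressor Apc (Pirc/+), and the other pair was wild type for Apc (WT). Within each genotype 1 group was untreated, and the other drank 4% dextran sodium sulfate (DSS, a polymer that injures the colonic epithelium) on days 40 to 47 and 54 to 61 of age, so that the tissue was taken 36 days after the last day of DSS. The Pirc allele is carried by every cell of these heterozygous rats, which develop colonic adenomas, and the tissue of all 16 samples is labelled as normal distal colon. The questions put to these genes were whether earlier DSS changed them in either genotype, whether Pirc and WT rats differed with or without DSS, and whether the DSS change differed between genotypes.

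Goblet cells are the secretory cells of the colonic epithelium that make the mucus layer between the epithelium and the bacteria of the lumen. They arise from crypt progenitors that escape Notch signalling and express Atoh1, and their later maturation depends on Spdef. Their granules carry the gel-forming mucin MUC2 together with the proteins Fcgbp, Clca1 and Zg16, the trefoil peptide Tff3 and the resistin-like protein Retnlb, while Agr2 is a disulfide isomerase of the endoplasmic reticulum needed to fold mucin.

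Of the 7 measured genes, 3 passed the test in at least 1 comparison, namely Clca1, Retnlb and Spdef. The share of all probes that passed in at least 1 comparison was not counted, and the share for each comparison is given below. Retnlb and Spdef lost their calls under some of the other settings described below. Because these 3 genes passed, their promoter sequences are shown, from 250 bases before the annotated start to 50 after it. They come from RefSeq on build GRCr8 and are printed 5′ to 3′ on the strand of the gene, from chr2:236624665-236624964 (minus strand) for Clca1, chr11:65448270-65448569 (minus strand) for Retnlb and chr20:5787636-5787935 (minus strand) for Spdef. Capitals mark matches, on either strand, to any of 5 motifs, the TATA box motif TATAAA, the CDX motif TTTATG, the FOXA motif TGTTTAC, the KLF motif CACCC and the E-box motif CAGCTG.
Clca1: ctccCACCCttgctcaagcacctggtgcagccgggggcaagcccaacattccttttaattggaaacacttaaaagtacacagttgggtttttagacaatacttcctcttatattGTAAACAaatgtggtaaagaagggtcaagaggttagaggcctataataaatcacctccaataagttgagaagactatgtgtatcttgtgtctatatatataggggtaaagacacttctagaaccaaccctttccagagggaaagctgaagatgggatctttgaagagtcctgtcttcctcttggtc
Retnlb: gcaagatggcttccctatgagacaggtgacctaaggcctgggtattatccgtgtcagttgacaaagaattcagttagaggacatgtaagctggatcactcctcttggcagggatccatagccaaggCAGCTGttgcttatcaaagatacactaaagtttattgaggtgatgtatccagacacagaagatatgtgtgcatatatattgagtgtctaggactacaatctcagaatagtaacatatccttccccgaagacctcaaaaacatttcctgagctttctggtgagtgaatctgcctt
Spdef: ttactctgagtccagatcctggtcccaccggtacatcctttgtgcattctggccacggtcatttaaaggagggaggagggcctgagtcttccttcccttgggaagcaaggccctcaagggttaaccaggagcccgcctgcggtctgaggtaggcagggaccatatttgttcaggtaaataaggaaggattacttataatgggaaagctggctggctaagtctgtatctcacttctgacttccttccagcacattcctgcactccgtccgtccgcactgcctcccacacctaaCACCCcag

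The Clca1 window held the reverse complement of the FOXA motif, GTAAACA, 136 bases before the start, and 1 CACCC. Among the 9 members with a promoter in the RefSeq table Clca1 alone held the FOXA letters, which 3.8% of all 33469 rat promoters of this length held. The Retnlb window held the E-box letters 124 bases before the start, a match also found in Muc2 and in 15.1% of all promoters. In the Spdef window the single match was a CACCC after the start, a motif found in 7 of the 9 members and in 54.9% of all promoters. These matches describe letters in a window and were not tested for binding.

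Levels are given as log2 of the background-corrected probe signal relative to the 75th percentile of the same array, so that 0 is the signal of the probe at that percentile and a difference of 1 is a 2-fold change. They compare rats for 1 probe and not genes with each other. A gene passed the test where limma's moderated fit over all 30367 probes gave a Benjamini-Hochberg adjusted p of 0.05 or less. The 75th percentile signal ranged from 875.4 to 2194 units and 71.11% to 80.32% of non-control spots were well above background. For 14 of the 16 arrays the most similar array belonged to the same group. The exceptions were untreated Pirc rat 23 and DSS-treated WT rat 26, both most similar to untreated WT rat 25, and values without both rats are given where they change a call. In RNA from whole tissue a lower level may come from fewer goblet cells or from less RNA per goblet cell, and these cannot be told apart here.

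Clca1, a secreted metalloprotease of the mucus layer, was diminished after DSS in Pirc rats, and its treated and untreated Pirc groups did not overlap. The share of all probes whose groups did not overlap was not counted, so the separation is only described. Its level in untreated Pirc rats 11, 15, 19 and 23 was 6.19, 5.59, 5.80 and 4.97. DSS-treated Pirc rats 12, 16, 20 and 24 had 3.38, 3.59, 2.60 and 4.72. All 4 treated rats lay below all 4 untreated rats, with rat 20 lowest and rat 24 closest to the untreated range. The group means of 5.64 ± 0.51 (SD, n = 4) and 3.57 ± 0.88 (SD, n = 4) differed by a log2 change of -2.07 (SE 0.40, 95% confidence interval -2.92 to -1.21), 4.18-fold lower after DSS (limma, adjusted p = 0.00325).

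Wild type rats did not show a change of Clca1 of this size that passed the test. Untreated WT rats 13, 17, 21 and 25 had levels of 4.92, 5.99, 6.33 and 6.18, and DSS-treated WT rats 14, 18, 22 and 26 had 5.40, 5.68, 5.28 and 5.80. The treated rats all lay inside the untreated range. The log2 change was -0.32 (SE 0.40, 95% confidence interval -1.17 to 0.54, limma adjusted p = 0.79). The difference between the DSS changes of the genotypes was -1.75 (SE 0.57, 95% confidence interval -2.96 to -0.54), with an unadjusted p of 0.00776 and an adjusted p of 0.31, so it did not pass the test over all probes.

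Among DSS-treated rats, Clca1 was lower in Pirc than in WT, again with no overlap of the groups. The log2 difference was -1.97 (SE 0.40, limma adjusted p = 0.00544), against -0.22 (SE 0.40, adjusted p = 0.885) among untreated rats. Averaged over genotypes the DSS change was -1.19 (SE 0.28, adjusted p = 0.00897), and averaged over treatments the Pirc difference was -1.09 (SE 0.28, adjusted p = 0.0168). The last of these did not pass without rats 23 and 26 (-0.94, adjusted p = 0.0532), a setting chosen after the data were seen. In order of group mean, untreated WT (5.86), untreated Pirc (5.64) and DSS-treated WT (5.54) were neighbours whose ranges overlapped, and DSS-treated Pirc (3.57) stood apart below them.

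The arrays lay on 2 slides with 2 rows each, and each row of each slide held 1 rat of every group. Within slide 1 the Clca1 change after DSS in Pirc rats was -2.41 and within slide 2 it was -1.72. Within the first and second array rows it was -3.00 and -1.13. The direction was the same in each of these 4 subsets. With the 4 combinations of slide and row as a block, a setting also chosen after the data were seen, the change was -2.07 (adjusted p = 0.00816). Because every group filled an array column of its own, an effect of the column cannot be told apart from one of the group.

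**Figure D1:**
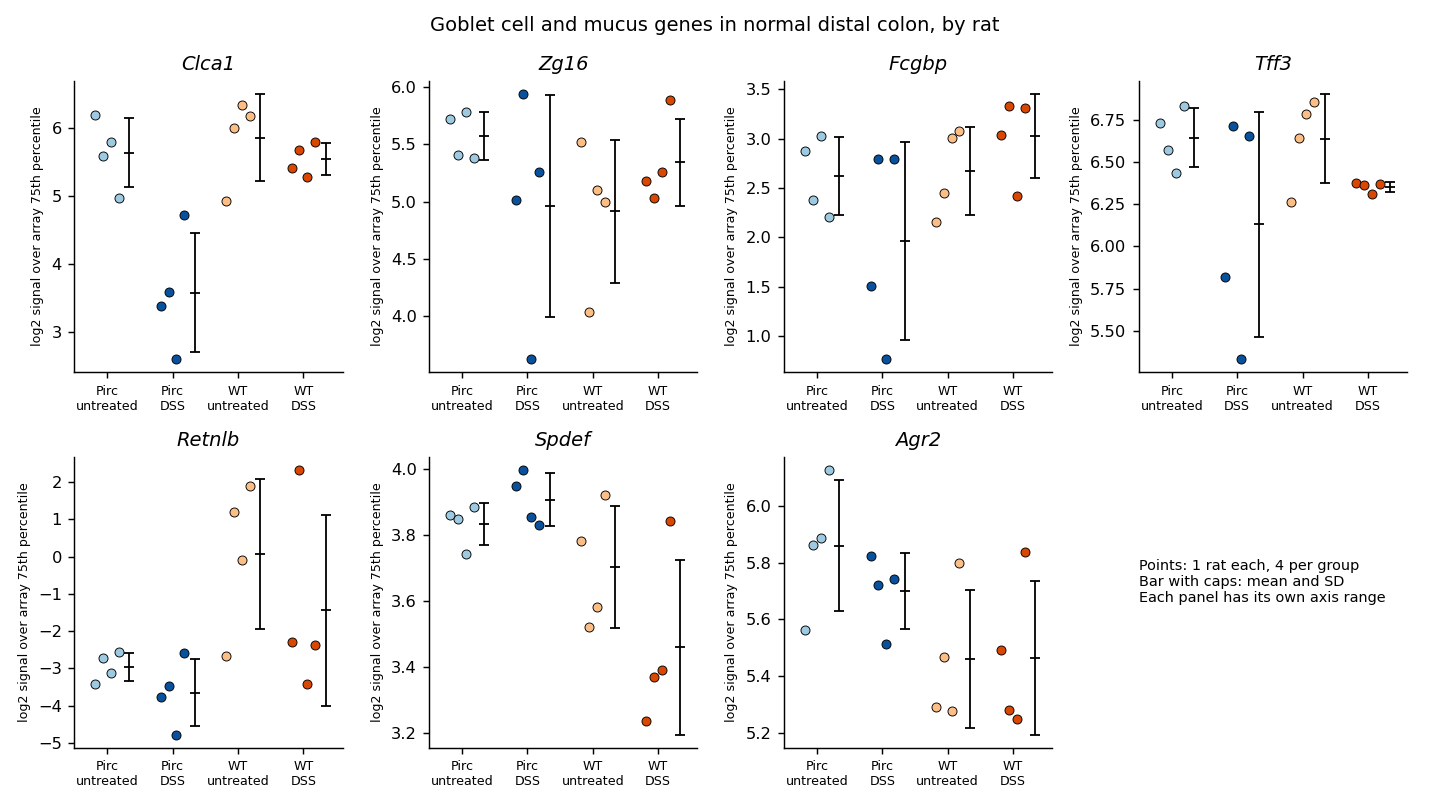
Level of each measured gene in every rat (y axis, log2 signal over the 75th percentile of the array, each panel with its own range) in the 4 groups (x axis); points are single rats and bars give the mean and SD of 4 rats. Clca1 in DSS-treated Pirc rats lies between 2.60 and 4.72, below all other rats, and Retnlb is at -0.10 or higher in 4 WT rats only.

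The other proteins of the mucus layer, Fcgbp and Zg16, spread widely in DSS-treated Pirc rats and passed the test in no comparison. Fcgbp, a large IgG Fc binding protein bound to the mucin gel, had levels of 1.50, 2.80, 0.77 and 2.79 in DSS-treated Pirc rats 12, 16, 20 and 24. Untreated Pirc rats 11, 15, 19 and 23 had 2.87, 2.37, 3.03 and 2.21. Rats 12 and 20 lay below the untreated range and rats 16 and 24 inside it, and the log2 change was -0.66 (SE 0.41, adjusted p = 0.341). Among DSS-treated rats the difference of Pirc from WT was -1.06 (SE 0.41, 95% confidence interval -1.93 to -0.19), with an unadjusted p of 0.0203 and a limma adjusted p of 0.0861. That value passed only without rat 16 (-1.34, adjusted p = 0.0328) or without rat 24 (-1.34, adjusted p = 0.0369).

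Zg16, a lectin that binds the cell wall of Gram-positive bacteria, had levels of 5.01, 5.94, 3.63 and 5.26 in DSS-treated Pirc rats 12, 16, 20 and 24. In untreated Pirc rats the 4 levels ran from 5.38 to 5.78, so rats 12 and 24 lay below them, rat 20 farther below, and rat 16 above. The log2 change of -0.61 (SE 0.40, 95% confidence interval -1.48 to 0.25) had an adjusted p of 0.38. In WT rats the mean was 4.91 ± 0.63 (SD, n = 4) untreated and 5.34 ± 0.38 (SD, n = 4) after DSS, a log2 change of 0.43 (SE 0.40, adjusted p = 0.694).

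Tff3, the trefoil peptide that goblet cells secrete with mucin and that aids the closing of epithelial wounds, kept a mean above 6 in all 4 groups. DSS-treated Pirc rats 12, 16, 20 and 24 had 5.82, 6.71, 5.33 and 6.65, with rats 12 and 20 below the untreated Pirc range of 6.44 to 6.83. The log2 change after DSS was -0.51 (SE 0.25, adjusted p = 0.21) in Pirc rats, -0.28 (SE 0.25, adjusted p = 0.667) in WT rats and -0.40 (SE 0.18, unadjusted p = 0.042, adjusted p = 0.157) over both. DSS-treated WT rats were close together, between 6.31 and 6.37. Rat 20 held the lowest level of its group for 6 of the 7 genes, all but Spdef, and its Clca1, Fcgbp, Tff3, Zg16 and Retnlb levels were the lowest of all 16 rats. In the same way DSS-treated WT rat 22 was lowest of its group for 5 of the 7 genes and untreated WT rat 13 for 4.

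Retnlb, also called RELMβ, is a goblet cell protein induced by bacterial colonization and by type 2 cytokines, and it was high in some WT rats and in no Pirc rat. Untreated WT rats 13, 17, 21 and 25 had levels of -2.67, 1.19, -0.10 and 1.90. DSS-treated WT rats 14, 18, 22 and 26 had -2.28, 2.33, -3.43 and -2.38. In the 8 Pirc rats the level ran from -4.78 to -2.56, the range in which WT rats 13 and 22 also lay. Within the WT groups 4 rats (17, 21, 25 and 18) stood above all others, and the remaining 4 WT rats lay between -3.43 and -2.28.

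Over both treatments Retnlb was lower in Pirc rats by a log2 difference of -2.63 (SE 0.78, 95% confidence interval -4.28 to -0.97, limma adjusted p = 0.0307). Among untreated rats the difference was -3.04 (SE 1.10, unadjusted p = 0.0146, adjusted p = 0.352) and among DSS-treated rats it was -2.21 (SE 1.10, adjusted p = 0.186). The SD of 4 rats was 2.01 in untreated WT and 2.57 in DSS-treated WT, against 0.38 and 0.90 in untreated and DSS-treated Pirc rats. The call over both treatments rests on few rats: leaving out 1 rat at a time gave adjusted p values from 0.0133 to 0.0655 and ended the call for 8 of the 16 rats (Pirc rats 11, 12, 15, 19 and 20 and WT rats 17, 21 and 25). The DSS changes were -0.69 (SE 1.10, adjusted p = 0.781) in Pirc and -1.52 (SE 1.10, adjusted p = 0.565) in WT rats. Both SEs use 1 spread estimated over all 4 groups, so the wide WT spread enters the Pirc SE. With only the Pirc groups fitted, the Pirc change also did not pass (limma adjusted p = 0.409). Within slide 1 the WT change was 0.76 and within slide 2 it was -3.81, so its direction differed between slides.

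Retnla, the paralogue of Retnlb and a list gene rather than a member, had its highest 4 levels in the same 4 WT rats. Its level was -3.44, -4.79 and -2.16 in untreated WT rats 17, 21 and 25 and -2.20 in DSS-treated WT rat 18. It was well above background on 5 arrays, those of the 4 rats and DSS-treated Pirc rat 24 at -5.47. How far the probes of these related genes read each other's transcript was not tested, so the match of their patterns is uncertain. By root mean square difference of centred log2 levels over the 16 rats, among 9928 named genes well above background on every array, the 5 genes most like Retnlb were Mptx1 (1.35), Slc39a2 (1.48), Aoc1 (1.59), Trpv1 (1.65) and Tppp (1.65), where the root mean square of Retnlb itself was 2.06.

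Spdef, the ETS transcription factor of goblet cell maturation, was slightly higher in Pirc than in WT rats after DSS. The brighter of its 2 probes read 3.95, 4.00, 3.85 and 3.83 in DSS-treated Pirc rats 12, 16, 20 and 24. In DSS-treated WT rats 14, 18, 22 and 26 it read 3.24, 3.37, 3.39 and 3.84. WT rats 14, 18 and 22 lay below all 4 Pirc rats and WT rat 26 lay among them. The log2 difference was 0.45 (SE 0.14, 95% confidence interval 0.15 to 0.74, limma adjusted p = 0.0355), under 2-fold. The second Spdef probe gave 0.34 (SE 0.14, adjusted p = 0.112), with the same direction and no call, and both probes averaged gave 0.39 (adjusted p = 0.0534). The call was lost without Pirc rat 12, 16 or 20 or WT rat 14, 18 or 22 (adjusted p 0.0585 to 0.107). Over both treatments the difference was 0.29 (SE 0.10, adjusted p = 0.0527), and it passed without WT rat 25 (0.33, adjusted p = 0.0382), without WT rat 26 (0.35, adjusted p = 0.0113) and without rats 23 and 26 together (0.35, adjusted p = 0.018). Rats 25 and 26 had the highest mean centred log2 levels of 7 smooth muscle markers, 2.12 and 2.73, against -1.02 to 1.45 in the other rats, and the part of these markers in the Spdef and Agr2 values was not tested. The DSS change was 0.07 (SE 0.14, adjusted p = 0.824) in Pirc and -0.24 (SE 0.14, adjusted p = 0.422) in WT rats.

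Agr2 varied little, with 16 levels between 5.25 and 6.13. Its mean was 5.86 ± 0.23 (SD, n = 4) in untreated Pirc, 5.70 ± 0.13 (SD, n = 4) in DSS-treated Pirc, 5.46 ± 0.24 (SD, n = 4) in untreated WT and 5.46 ± 0.27 (SD, n = 4) in DSS-treated WT rats. Pirc rats exceeded WT rats by 0.32 over both treatments (SE 0.12, 95% confidence interval 0.06 to 0.57), with an unadjusted p of 0.0176 and an adjusted p of 0.08. With slide and row as a block it passed (adjusted p = 0.0471). This difference also passed without Pirc rat 11 (0.37, adjusted p = 0.0489), WT rat 25 (0.37, adjusted p = 0.0413) or WT rat 26 (0.38, adjusted p = 0.0314). The log2 change after DSS was -0.16 (95% confidence interval -0.52 to 0.20) in Pirc and 0.01 (95% confidence interval -0.35 to 0.36) in WT rats.

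**Figure D2:**
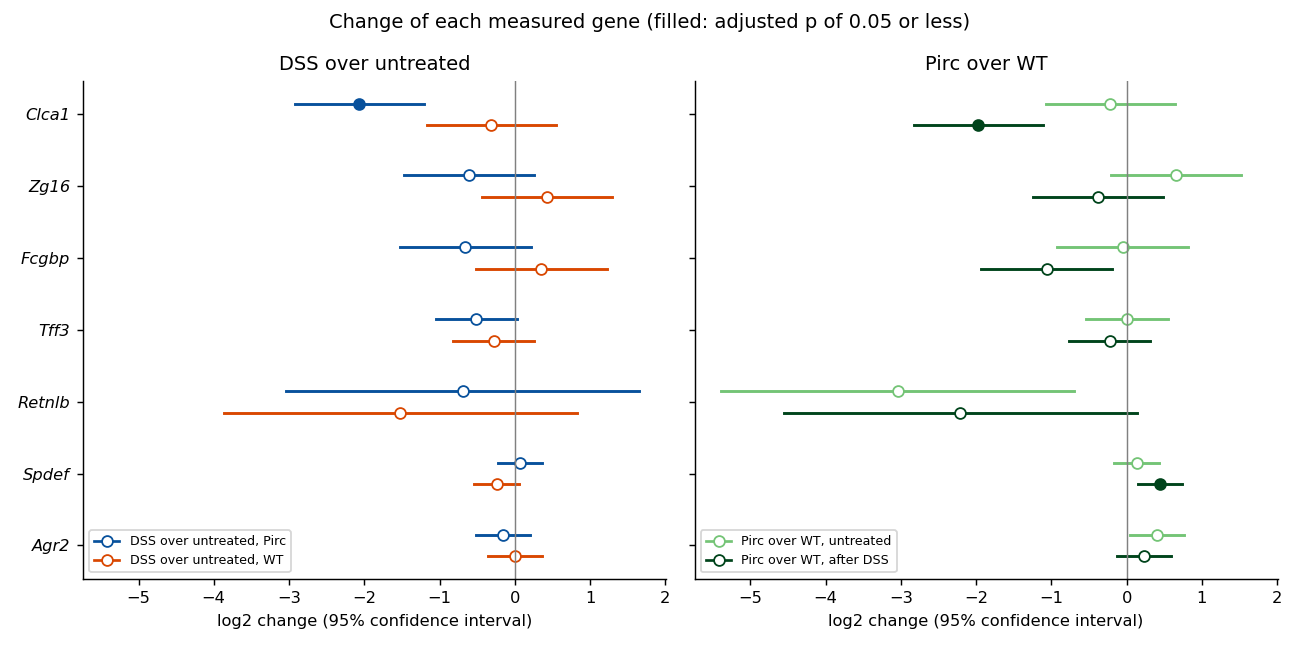
Log2 change of the 7 measured genes (x axis) with 95% confidence intervals, DSS over untreated in each genotype on the left and Pirc over WT in each treatment on the right; filled points passed an adjusted p of 0.05. Clca1 in Pirc rats (-2.07), Clca1 in Pirc over WT after DSS (-1.97) and Spdef in the same comparison (0.45) are the filled points.

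Counted over the 7 measured members, 1 passed for DSS in Pirc rats, where 14.7% of all probes passed. None passed for DSS in WT rats, where 3.84% of probes passed and where no member had an unadjusted p under 0.05. Over both genotypes 1 passed for DSS, against 17.2% of probes. For Pirc against WT, none passed among untreated rats, where 0% of probes passed although 3103 had an unadjusted p under 0.05. After DSS 2 passed (18.2% of probes) and over both treatments 2 passed (17.5% of probes), while none passed for the difference between the DSS changes (0.0428% of probes). These counts are close to what the shares of all probes would give in 7 genes and are no result about the group as a whole. The median log2 change of the 7 was -0.61 after DSS in Pirc rats and -0.24 in WT rats, beside 0.04 and 0.09 over all probes.

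By direction, the probes called higher and lower were 8.14% and 6.51% for DSS in Pirc rats, 2.94% and 0.899% for DSS in WT rats, and 10.2% and 6.99% for DSS over both. For Pirc against WT they were 9.47% and 8.76% after DSS and 9.26% and 8.27% over both treatments, with 0 in either direction among untreated rats. All members called were lower except Spdef. Scaling to the mean of 9 epithelial markers in place of the 75th percentile adds 0.224 to every gene for Pirc over both treatments. With this scaling 4 members passed there, Clca1 and Retnlb lower and Agr2 (0.54, adjusted p = 0.0091) and Spdef (0.51, adjusted p = 0.00726) higher. Of all probes 21.3% then passed as higher and 2.7% as lower.

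The other goblet cell and mucus proteins moved in both directions after DSS. Of 23 listed, 19 were measured, and in Pirc rats 3 passed as higher and 7 as lower, with a median log2 change of -0.42. Under the other settings 1 to 5 passed as higher and 4 to 9 as lower. Klk1, the tissue kallikrein of colonic goblet cells, was 2.75 ± 0.19 (SD, n = 4) untreated and 1.55 ± 0.20 after DSS in Pirc rats, a log2 change of -1.20 (SE 0.14, adjusted p = 0.00013). Klk1 also passed in WT rats (-0.72, SE 0.14, adjusted p = 0.0104). Tgm3, a transglutaminase that cross-links the mucus gel, changed by -2.07 (SE 0.37, adjusted p = 0.00204) in Pirc rats, and Rep15, a Rab15 effector, by -1.72 (SE 0.37, adjusted p = 0.00578). Agr3, a homologue of Agr2 (-1.23, SE 0.23, adjusted p = 0.00249), Itln1, a lectin, Guca2a, which encodes guanylin, and Ern2, the endoplasmic reticulum stress sensor of mucous cells, made up the 7.

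The genes that rose in Pirc rats were Tff1, Dmbt1 and Clca4. Tff1, a trefoil peptide known from the stomach, had levels of -2.10, -1.12, -2.87 and -1.02 in untreated and 0.99, -0.09, 1.21 and 0.85 in DSS-treated Pirc rats, with no overlap (log2 change 2.52, SE 0.64, adjusted p = 0.0157). In WT rats it rose by 2.49 (SE 0.64, adjusted p = 0.0431). Clca4, an epithelial relative of Clca1, rose by 1.67 (SE 0.36, adjusted p = 0.00676) in Pirc and by 1.76 (SE 0.36, adjusted p = 0.0157) in WT rats. Dmbt1, a scavenger receptor protein of mucus, rose by 1.77 (SE 0.53, adjusted p = 0.0381) in Pirc rats and had a change of 1.44 in WT rats that did not pass. In WT rats 2 of the 19 passed as higher (Tff1 and Clca4) and 1 as lower (Klk1), with 0 to 2 higher and 1 to 2 lower under the other settings. The difference between the DSS changes passed for none of the 19.

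Among the members' closest relatives by role, Tgm3 and Guca2a were lower in Pirc than in WT after DSS, Tgm3 by -2.82 (SE 0.37, adjusted p = 0.000568) and Guca2a by -1.42 (SE 0.18, adjusted p = 0.000432). Clca4 was higher there (1.49, SE 0.36, adjusted p = 0.0122). Its untreated means also differed, at 3.92 in Pirc and 2.34 in WT rats, in a comparison where no probe passed. In total 2 passed as higher and 3 as lower in Pirc against WT after DSS. The other call as higher, Tff2, was well above background on 0 arrays and carries no fold. Of 13 other mucins listed, only Muc15 and Muc20 were measured, Muc15 on 0 arrays above background. Muc20, a membrane mucin, had levels of -4.85, -2.40, -2.84 and -2.56 in DSS-treated Pirc rats, all 4 well above background, and of -7.20 to -6.47 in untreated Pirc rats, of which 1 was (adjusted p = 0.000358). With 3 of the 4 untreated rats not well above background, no exact fold is given.

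**Figure D3:**
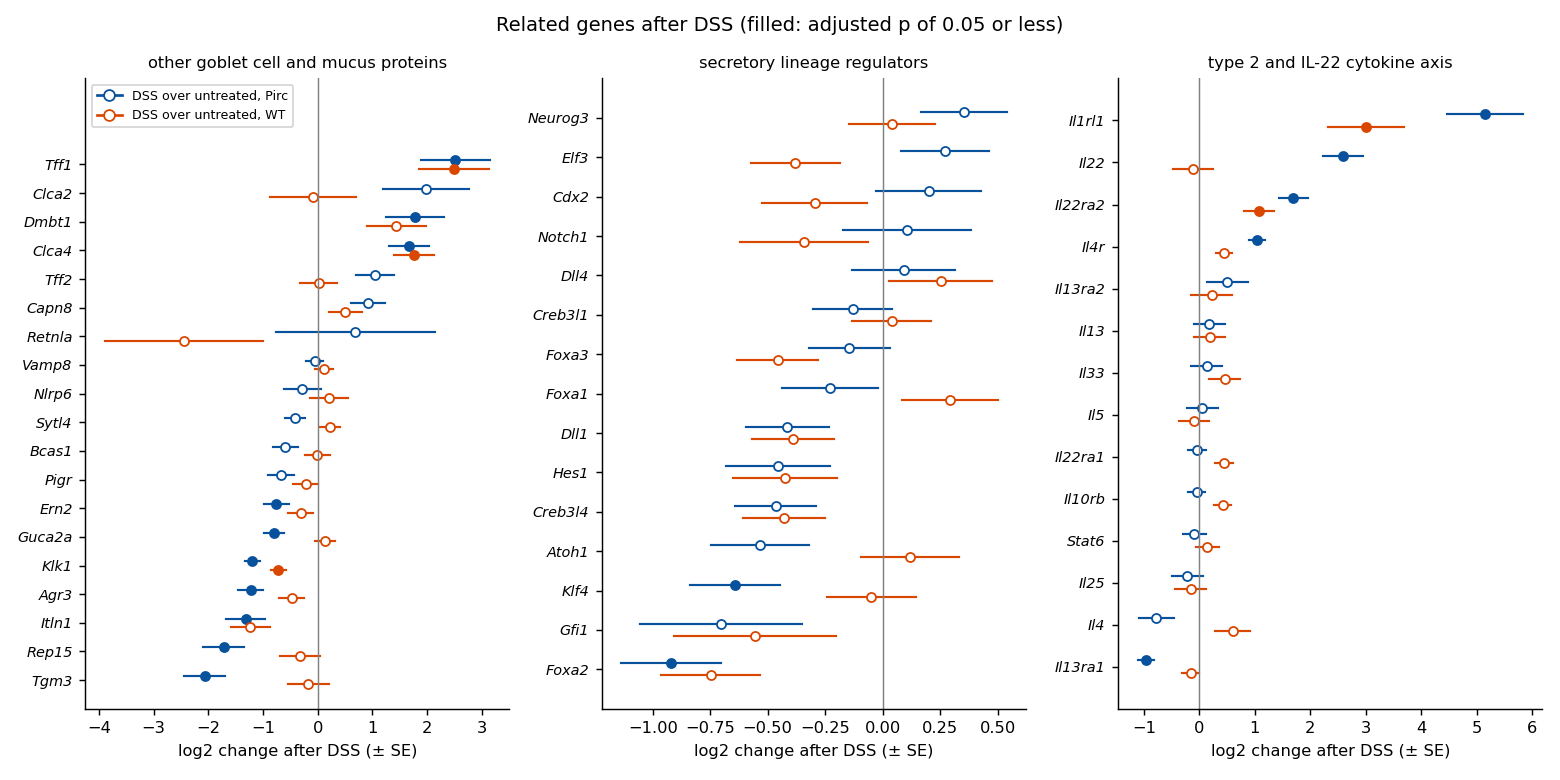
Log2 change after DSS (x axis, ± SE) of the measured genes of 3 related lists in Pirc rats (blue) and WT rats (orange), 4 rats a group; filled points passed an adjusted p of 0.05. In the left panel 3 genes are filled to the right and 7 to the left for Pirc rats, and 2 and 1 for WT rats.

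Of the 15 secretory lineage regulators, all measured, 2 passed as lower after DSS in Pirc rats and none in WT rats. Of all probes 6.51% passed as lower in Pirc and 0.899% in WT rats. Under the other settings 0 to 3 regulators passed as lower in Pirc and 0 to 1 in WT rats. These counts are no result about the list as a whole. Foxa2, a forkhead factor expressed in goblet cells, fell by 0.92 on the log2 scale (SE 0.22, adjusted p = 0.0105), and Klf4, needed for terminal goblet cell differentiation, fell by 0.64 (SE 0.20, adjusted p = 0.0401). Neither passed when the 2 Pirc groups were fitted alone. Atoh1, which commits progenitors to the secretory lineage, had a change of -0.53 (adjusted p = 0.115) in Pirc and 0.12 in WT rats. Over both genotypes Foxa2, Creb3l4 and Dll1 passed as lower. Klf4 was also lower in Pirc than in WT after DSS (-0.81, SE 0.20, adjusted p = 0.0118), the reverse of Spdef in the same comparison. Neither Klf4 nor Spdef passed in that comparison when only the DSS-treated groups were fitted.

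The type 2 and IL-22 cytokines and receptors, which act on goblet cells, were listed as 15 genes and measured for 14. In Pirc rats 4 passed as higher after DSS and 1 as lower, and in WT rats 2 passed as higher (0 to 2 under the other settings). Il1rl1, the receptor of IL-33, was well above background in 4 of 4 DSS-treated and 0 of 4 untreated Pirc rats and was at least 13.3-fold higher (adjusted p = 0.000276), a bound set against the lowest signal well above background on each array. In WT rats it was well above background in 2 of 4 treated rats and 0 of 4 untreated rats (limma adjusted p = 0.0257). With 2 treated rats not well above background, no fold is given. Il22 was well above background in 2 DSS-treated Pirc rats and in no other rat. It passed as higher than in untreated Pirc rats (limma adjusted p = 0.000414), and no fold is given for the same reason. Il22ra2, the soluble IL-22 binding protein, rose by 1.70 (SE 0.26, adjusted p = 0.000778), Il4r by 1.04 (SE 0.15, adjusted p = 0.000404), and Il13ra1 fell by 0.96 (SE 0.15, adjusted p = 0.000881). Il13 itself, above background on all 16 arrays, ran from -5.64 to -4.11 and passed in no comparison.

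Markers of several other cell types were higher after DSS in both genotypes. Squamous and urothelial markers, 10 of 13 measured, had a mean centred log2 level of 2.004 to 3.70 in DSS-treated Pirc rats and of -1.92 to -1.38 in untreated Pirc rats, and 8 of the 10 passed as higher. Fibroblast markers passed as higher for 7 of 8 in Pirc rats (0.76 to 2.02 treated, -1.23 to -0.50 untreated) and leukocyte markers for 4 of 8 (0.43 to 0.98 treated, -1.02 to -0.42 untreated). Of 7 smooth muscle markers none passed as higher in Pirc rats and 1, Des, passed as lower (-1.87, adjusted p = 0.00964), with list levels of -0.70 to 1.45 treated and -1.02 to -0.52 untreated. In WT rats 3 of 10 squamous and urothelial, 5 of 8 fibroblast and 3 of 8 leukocyte markers also passed as higher after DSS. The part of these markers in the change of Clca1 was not tested. DSS-treated WT rats 14, 18, 22 and 26 had squamous and urothelial levels of 0.38, 1.085, 2.90 and -1.955. Their fibroblast levels were 2.05, 1.19, -0.35 and 0.11, and their Clca1 levels were 5.40, 5.68, 5.28 and 5.80.

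Of 9 epithelial markers measured, 1 passed as lower after DSS in Pirc rats and 5 were lower in Pirc than in WT after DSS (Epcam, Cdh1, Krt8, Vil1 and Cldn3, by 0.49 to 0.62 on the log2 scale). Scaling each array to these 9 markers adds 0.013 to every gene for DSS in Pirc rats and 0.285 for Pirc against WT after DSS, which gives Clca1 values of -2.05 and -1.68. The part of the epithelial content in the Clca1 values was not tested. Of 10 enteroendocrine and tuft cell markers, 5 passed as lower after DSS in Pirc rats and none as higher. The 5 were the tuft cell markers Gnat3 (-2.37), Dclk1 (-1.46), Pou2f3 (-1.29), Trpm5 (-1.06) and Avil (-0.98). Among the 4 DSS-treated Pirc rats, Pou2f3 was well above background in 2 and Gnat3 in 3, so the changes of Pou2f3 and Gnat3 are not exact. The enteroendocrine markers did not pass, at -0.40 for Chga, -0.36 for Neurod1, -0.02 for Pyy, 0.20 for Chgb and 0.64 for Gcg. No member of the enteroendocrine and tuft list passed after DSS in WT rats. Of 10 absorptive colonocyte markers, 1 passed as higher and 1 as lower after DSS in Pirc rats, and 0 passed in WT rats. Their log2 changes in Pirc rats had a median of 0.181 and ran from -1.72 to 1.5, so the list had no common direction. The lowest was Slc26a3, with a mean of 3.62 untreated and 1.89 after DSS in Pirc rats. In WT rats the Slc26a3 mean was 3.90 and 4.14, so a lower mean in DSS-treated Pirc rats was also seen in this gene from outside the goblet cell lists. Ceacam1, of the same list, went the other way in Pirc rats, from a mean of -4.39 to -2.89.

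**Figure D4:**
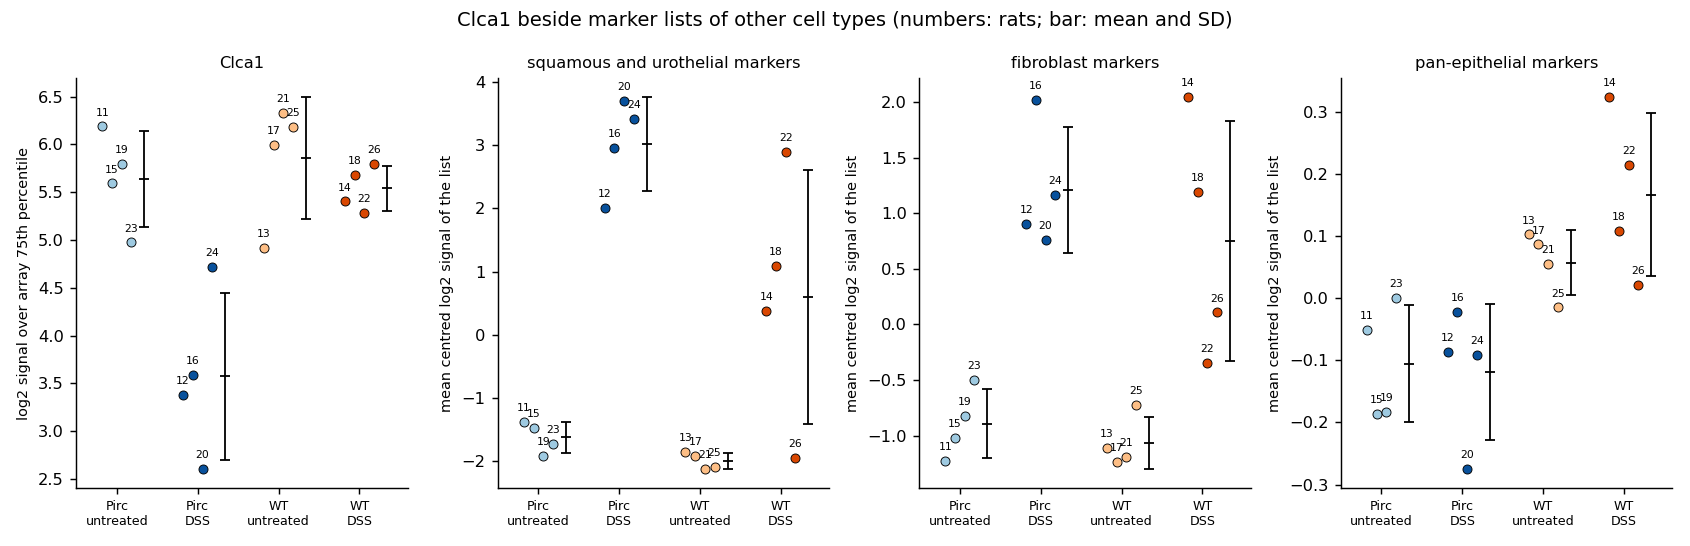
Clca1 level (left, log2 signal over the 75th percentile of the array) beside the mean centred log2 level of 3 marker lists in every rat, numbered, with bars for the mean and SD of 4 rats. The squamous and urothelial level runs from 2.004 to 3.70 in DSS-treated Pirc rats and from -1.955 to 2.90 in DSS-treated WT rats.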

How the data were processed

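Total RNA of normal distal colon from 16 rats was hybridized to single-colour Agilent arrays, 1 rat per array. Per the file headers, the authors extracted background-corrected spot intensity with Agilent Feature Extraction 10.7.3.1. The processing notes name Partek, whose output was not used here. From the deposited intensity, log2 values were formed, the 75th percentile of each array was subtracted, spots of 1 probe were averaged without outlier-flagged spots, and probes were named by RefSeq accession on build GRCr8. Precision is limited by 4 rats per group. A model with 1 mean per group was fitted to all 16 arrays and 30367 probes with limma 3.58.1 in R 4.3.3, giving 7 comparisons, each adjusted by Benjamini-Hochberg. A gene with several probes was read from its brightest. All members were named, with up to 4 called genes of each list and comparison by adjusted p and the 5 genes most like the member of widest group range. Genes beyond this rule were named after their values were seen. The likeness search for Muc2 could not be run. The members and lists were chosen with earlier results of these data known. On simulated data for DSS in Pirc rats over 30367 probes, the fit recovered 63% of log2 changes of 1 and 95% of changes of 2. It also called 8 unchanged probes. Far fewer probes were changed there than were called in the data. All were well above background on all 16 arrays and had normal noise, so recovery in the data may differ. No 2 arrays were identical. Rats share no replicate number across groups, so none were paired by number. The Pirc allele is a point mutation, so the Apc probe does not check the genotype. Alternatives covered normalization, background, dim and flagged spots, blocks for slide, array row and their 4 combinations (the last chosen after the data were seen), moderation, threshold, probe choice, scaling and each rat left out.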

Additional observations from a re-analysis of the deposited data

How the results depend on the processing

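Of 49 changes (7 genes in 7 comparisons) none that passed, in any setting, changed direction under 12 other settings, the 16 omissions of 1 rat, and 2 settings chosen after the data were seen, the omission of rats 23 and 26 together and the 4 combinations of slide and row as a block. Clca1 passed after DSS in Pirc rats in all 30 settings run (log2 change -2.45 to -1.74, adjusted p 0.000675 to 0.0223) and in Pirc against WT after DSS in all 30 (-2.35 to -1.65, adjusted p 0.00137 to 0.033). For Pirc against WT after DSS, 2 members passed as reported, and 1 passed with only the compared groups fitted, with a change of at least 2-fold required (met by 5.47% of all probes) and with probes of 1 gene averaged, Spdef being the gene lost. Omitting 1 rat gave 1 to 3 members there, with Spdef lost without Pirc rats 12, 16 or 20 or WT rats 14, 18 or 22 (adjusted p up to 0.107), and Fcgbp gained without rat 16 or 24. Over both treatments 2 passed as reported, 4 passed with arrays scaled to epithelial markers, and omitting 1 rat gave 1 to 4. There Retnlb also missed without moderation (adjusted p = 0.0512), and Spdef passed under quantile normalization, normexp correction, the filter on dim probes, no moderation and the common floor. Counts for the other 5 comparisons stayed the same. Scaling to epithelial markers raised every Pirc difference over both treatments by 0.224, and normexp moved the median of all probes there from -0.058 to -0.183. With that epithelial scaling 88.7% of called probes were higher, against 52.8% as reported, and 85.2% against 52% after DSS. Quantile normalization put 37.3% of called probes higher for DSS in Pirc rats, against 55.6%, and 53.3% against 76.6% in WT rats. The causes were not tested. Probes below background on every array of a group give only bounds or no fold.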

Other observations

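Il22ra1, the IL-22 receptor chain of epithelial cells, was lower in Pirc than in WT rats after DSS by a log2 difference of -1.04 (SE 0.16, limma adjusted p = 0.0014), and Il10rb, its partner chain, by -0.78 (SE 0.15, adjusted p = 0.00469). Stat6, which carries the IL-4 and IL-13 signal to the nucleus, differed by -0.66 (SE 0.21, adjusted p = 0.0428) and Il13ra1 by -0.60 (SE 0.15, adjusted p = 0.0159). These 4 of the 14 measured genes of the type 2 and IL-22 list passed as lower there and 2 (Il22 and Il1rl1) as higher. Of all probes 8.76% passed as lower and 9.47% as higher in this comparison. Il22 was well above background in only 2 of the DSS-treated Pirc rats and in 0 of the DSS-treated WT rats. Under the other settings 2 to 4 passed as lower. Of 9 epithelial markers 5 were also lower in Pirc rats after DSS, and their part in these values was not tested. The inflammasome gene Nlrp6, studied for its part in mucus secretion, was lower in Pirc rats over both treatments (-0.77, SE 0.24, adjusted p = 0.0407), and Creb3l4, a transcription factor of secretory cells, was higher (0.46, SE 0.13, adjusted p = 0.0222).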
